A study of Homo sapiens with 3 samples.

Results

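The genes that add and remove methyl groups at lysine 9 of histone H3 (H3K9) were followed in RNA-seq libraries of MTAC-P, a human lung cancer line derived from PC9 and resistant to EGFR tyrosine kinase inhibitors. The 10 genes were chosen by name for their known function, 5 methyltransferases (EHMT1, EHMT2, SUV39H1, SUV39H2 and SETDB1) and 5 demethylases (KDM3A, KDM3B, KDM4A, KDM4B and KDM4C), out of 26555 genes in the deposited tables. All 10 were found. The control group is 1 library of cells with a luciferase hairpin (spelled shLuciferace in its title), and the shBCAT1 group is 2 libraries of cells with a hairpin against BCAT1, titled shBCAT1-1 and shBCAT1-2. All libraries come from the same resistant line grown in DMEM with serum, with no drug named in the labels. The series speaks of triplicates, and these 3 libraries are the ones analysed here. Nothing in the labels tells if shBCAT1-1 and shBCAT1-2 had 1 hairpin or separate cultures, so every p-value measures no more than the spread of these libraries, which may be technical.

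Methylated H3K9 is a mark of silent chromatin. EHMT1 (GLP) and EHMT2 (G9a) act as a heterodimer that places mono- and dimethylation in euchromatin, SUV39H1 and SUV39H2 place trimethylation at pericentric heterochromatin, and SETDB1 trimethylates H3K9 at retroelements and genes to which KRAB zinc finger proteins recruit it. The KDM3 enzymes remove mono- and dimethylation, and the KDM4 enzymes remove di- and trimethylation. Both demethylase families are Jumonji enzymes that use 2-oxoglutarate as a cosubstrate, the same metabolite to which BCAT1, the cytosolic branched-chain aminotransferase, passes the amino groups of branched-chain amino acids.

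Values are FPKM, fragment counts scaled to transcript length and library size, summed over the RefSeq transcripts of a gene, so that levels can be compared between genes of different length. Each deposited value has a lower and an upper bound, and 1 SD is taken here as the distance from value to upper bound divided by 2 and called the counting error. It covers no spread between libraries, and for a gene with several transcripts it also moves with how surely fragments could be split among them. The square of value over SD gives the number of fragments that would have such an error, called equivalent fragments. The summed FPKM of a library was 44312 to 53898, and depth read from the bounds was 1.03 and 1.09 times that of the control in the shBCAT1-1- and shBCAT1-2-labelled libraries. Of 12 markers of lung adenocarcinoma epithelium, 8 were at 1 FPKM or more in every library, with keratins highest, while the lung lineage markers NKX2-1, NAPSA and SFTPB were at most 0.22 FPKM. Markers of mesenchymal cells summed to 0.201 to 0.507 FPKM and those of endothelium to 0.115 to 0.221. Of 6 blood cell markers, CD68 alone reached 1 FPKM, at 3.42 to 3.6, while PTPRC and HBB were listed at 0.

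BCAT1 checks the labels. It stood at 0.213 FPKM in the control, 1.05 in the shBCAT1-1-labelled library and 0.241 in the shBCAT1-2-labelled library. The target was thus not lower in either library labelled shBCAT1. In the first it was 4.96 times the control, a difference of 7.16 times its counting error. By limma, a linear model over all genes described below, here fitted without a minimum FPKM, the group difference was 0.40 ± 0.43 (SE) with an adjusted p of 0.863. Directions below therefore compare libraries by their labels, and a loss of BCAT1 RNA was not seen in them. In bulk RNA, fewer cells with a transcript and less of it per cell cannot be told apart.

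EHMT1 and EHMT2 were the most abundant of the 10 genes, and which of their transcripts held the value differed between libraries. Some of the sequences that tell these transcripts apart are shown first, because the assignment of fragments to transcripts rests in part on them. They are taken from the GENCODE release 29 transcripts matched to the RefSeq accessions, on GRCh38. EHMT2 lies on the minus strand of chromosome 6 (31879760 to 31897707 in the deposited tables, hg38). Its transcript NM_006709 holds a coding exon of 102 bases, exon 10 of 28 (chr6:31888969-31889070), which NM_025256 and NM_001289413 lack. In the first of the following lines this exon is in capitals between 20 bases of each neighbouring exon, and the second line shows the junction without it.
EHMT2 NM_006709, exon 10 kept: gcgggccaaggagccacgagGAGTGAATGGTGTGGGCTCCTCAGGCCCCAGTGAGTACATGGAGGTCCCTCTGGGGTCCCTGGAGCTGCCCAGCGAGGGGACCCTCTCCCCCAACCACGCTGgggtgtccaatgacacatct
EHMT2 NM_025256, exon 10 skipped: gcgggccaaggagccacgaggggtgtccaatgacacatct

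The EHMT2 transcript NM_001289413 also begins differently. Its first exon (chr6:31896923-31897222) runs through the end of the first intron of NM_006709 into the second exon, and 213 coding bases (chr6:31896990-31897202) are found in this transcript and not in NM_006709. Capitals in the next pair of lines mark the coding bases that precede the second exon of NM_006709, whose first 20 bases follow in lower case.
EHMT2 NM_006709, coding start: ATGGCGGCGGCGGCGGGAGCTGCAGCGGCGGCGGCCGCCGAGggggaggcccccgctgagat
EHMT2 NM_001289413, coding start: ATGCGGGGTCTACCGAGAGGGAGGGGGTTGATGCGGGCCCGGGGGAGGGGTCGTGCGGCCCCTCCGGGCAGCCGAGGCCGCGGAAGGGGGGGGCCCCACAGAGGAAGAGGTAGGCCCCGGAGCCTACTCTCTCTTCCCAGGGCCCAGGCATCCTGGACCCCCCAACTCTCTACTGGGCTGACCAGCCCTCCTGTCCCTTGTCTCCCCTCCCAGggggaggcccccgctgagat

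EHMT1 lies on the plus strand of chromosome 9 (137618992 to 137836126) and had 2 transcripts in the tables. The long one, NM_024757, has 27 exons and 3894 coding bases. The short one, NM_001145527, has 16 exons and 2424 coding bases and leaves the shared path after exon 15, so it lacks the last 12 exons of the long form with 1512 coding bases. The catalytic SET domain of EHMT1 is known to lie at the end of the protein that these exons encode. In the lines below, 20 bases of exon 15 are in lower case, and the capitals mark exon 16 of the long form (chr9:137790848-137790970) and the 42 coding bases of the last exon of the short form (chr9:137784106-137784393).
EHMT1 NM_024757, long form: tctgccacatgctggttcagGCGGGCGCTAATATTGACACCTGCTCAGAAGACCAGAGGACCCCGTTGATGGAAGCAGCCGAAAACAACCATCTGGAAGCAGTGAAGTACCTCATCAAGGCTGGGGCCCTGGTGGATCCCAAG
EHMT1 NM_001145527, short form: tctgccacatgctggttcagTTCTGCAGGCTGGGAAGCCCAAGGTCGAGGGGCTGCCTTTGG

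EHMT2 was the most abundant of the 10 genes in every library. It stood at 1.47 FPKM in the control, 1.71 in the shBCAT1-1-labelled library and 2.01 in the shBCAT1-2-labelled library, on 52.8, 49.8 and 68.9 equivalent fragments. Both libraries labelled shBCAT1 were above the control, and the bounds of all 3 overlapped (1.07 to 1.88 in the control, 1.23 to 2.19 and 1.53 to 2.49). Averaged over the shBCAT1 libraries it was 1.86 ± 0.21 FPKM (SD, n = 2), 1.26 times the control. In limma fitted on log2(FPKM + 1) over the 3889 genes whose mean reached 1 FPKM, EHMT2 differed by 0.21 ± 0.19 (SE), with a 95% interval of -0.32 to 0.73 and an adjusted p of 0.842. No gene passed as higher (percent called 0), and 0.36% of genes passed as lower, 14 in all. At an unadjusted p under 0.05, 0.643% were higher and 4.96% lower, and EHMT2 had an unadjusted p of 0.331. An lncRNA, EHMT2-AS1 (31877808 to 31884204), overlaps the EHMT2 locus, and without strand reads of the pair cannot be told apart there.

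EHMT1, the partner of EHMT2, was at 1.17 FPKM in the control, 0.953 in the shBCAT1-1-labelled library and 1.41 in the shBCAT1-2-labelled library. The control lay between the libraries labelled shBCAT1, whose mean was 1.18 ± 0.33 FPKM (SD, n = 2). The limma difference was 0.00 ± 0.21 (SE), with an interval of -0.59 to 0.60 and an adjusted p of 0.998. EHMT2 exceeded EHMT1 by 1.26 times in the control, 1.79 times in the shBCAT1-1-labelled library and 1.42 times in the shBCAT1-2-labelled library, which is 1.10, 2.62 and 1.94 times the counting error of the difference in FPKM. These members alone had a mean of 1 FPKM or more, and together they held 71.7%, 75.2% and 77.8% of the FPKM of the 5 methyltransferases.

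At the level of transcripts, NM_001289413 of EHMT2, the form with the other coding start, was listed near 0 in the control (upper bound 0.0348 FPKM), at 0.628 FPKM in the shBCAT1-1-labelled library (0.367 to 0.89) and at 0.574 in the shBCAT1-2-labelled library (0.232 to 0.915). Its bounds lay apart from the control in both libraries. The form with exon 10, NM_006709, was at 0.981, 0.637 and 1.44 FPKM in the same order, so the control lay between the libraries labelled shBCAT1. NM_025256, which skips exon 10 and keeps the usual start, was at 0.491 FPKM in the control, 0.444 in the shBCAT1-1-labelled library and near 0 in the shBCAT1-2-labelled library (upper bound 0.0335). Transcripts with exon 10 therefore held 66.6% of EHMT2 in the control, 37.3% in the shBCAT1-1-labelled library and 71.4% in the shBCAT1-2-labelled library. With every transcript tested on its own in limma without a filter, NM_001289413 differed by 0.68 ± 0.07 (SE), with an unadjusted p of 0.0189 and an adjusted p of 0.274.

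The long form of EHMT1, NM_024757, was at 0.444 FPKM in the control (0.264 to 0.624), 0.619 in the shBCAT1-1-labelled library (0.422 to 0.816) and 0.840 in the shBCAT1-2-labelled library (0.614 to 1.07). The short form, NM_001145527, was at 0.724, 0.334 and 0.573 FPKM. The long form thus held 38.0% of EHMT1 in the control and 64.9% and 59.4% in the shBCAT1-1- and shBCAT1-2-labelled libraries, while the bounds of each form overlapped those of the control. By limma neither form was called (adjusted p 0.996 for both). The last exon of the short form lies within LOC651337, an uncharacterized lncRNA (137784073 to 137788406), and the strand used in counting is not known here.

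**Figure D1:**
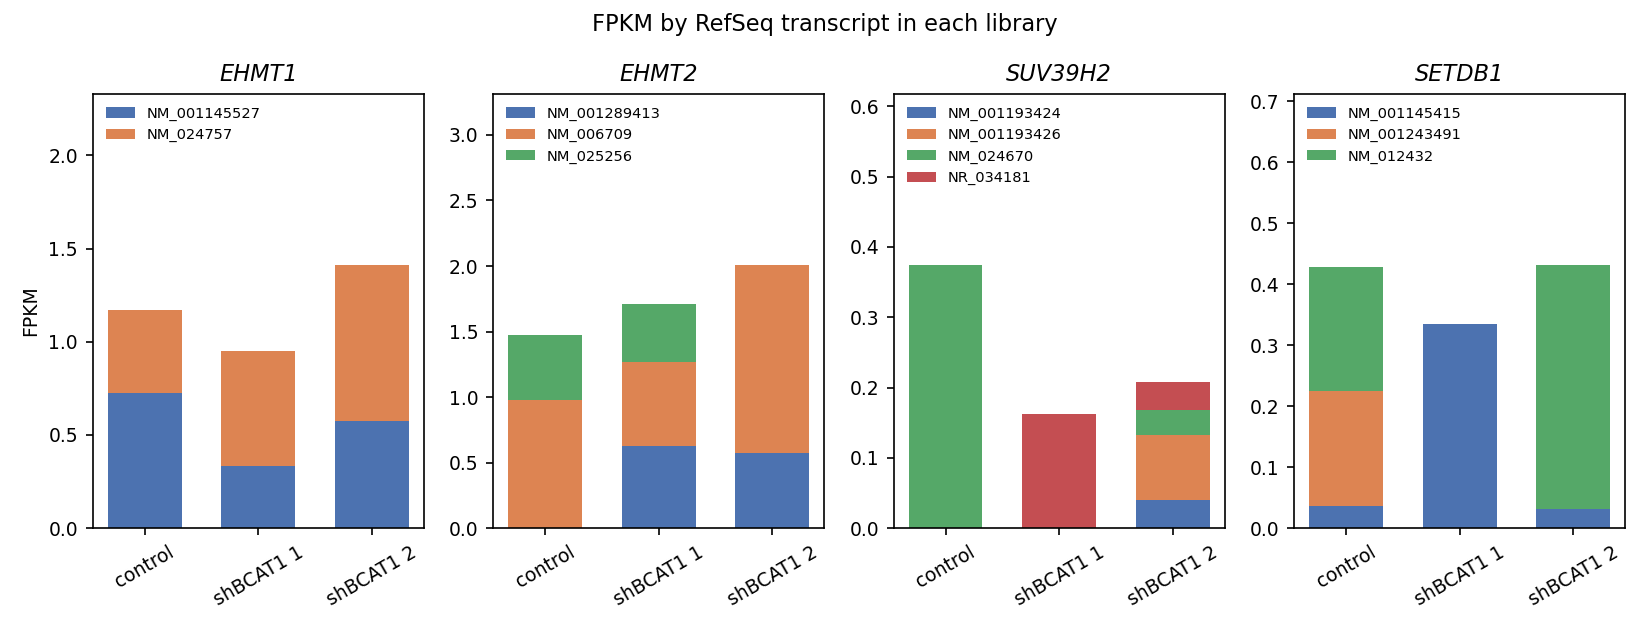
Stacked bars give the FPKM of each RefSeq transcript of EHMT1, EHMT2, SUV39H2 and SETDB1 in the control and the shBCAT1-1- and shBCAT1-2-labelled libraries (transcripts that reach 0.02 FPKM in a library; no error is drawn). NM_001289413 of EHMT2 is seen in both libraries labelled shBCAT1 and not in the control, and NM_024670 of SUV39H2 nearly fills the control bar and has at most 0.0351 FPKM in the other libraries.

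SUV39H1 and SUV39H2, the closely related trimethylating pair, stood at low levels, with bounds that overlapped each other in all 3 libraries. SUV39H1 (chromosome X, 48695554 to 48709015, hg38) was at 0.236 FPKM in the control, 0.382 in the shBCAT1-1-labelled library and 0.337 in the shBCAT1-2-labelled library. SUV39H2 (chromosome 10, 14878783 to 14904305) was at 0.379, 0.162 and 0.207 FPKM. SUV39H1 was 0.624 times SUV39H2 in the control and 2.35 and 1.63 times in the shBCAT1-1- and shBCAT1-2-labelled libraries. Within each library the pair differed by -1.03, 1.68 and 0.916 times the counting error, so their order is not resolved in any of them. The change of their difference from the control was 1.90 and 1.38 times its counting error, and each gene's bounds overlapped its control bounds in each library.

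In limma without a filter, over 16443 genes, SUV39H2 differed by -0.22 ± 0.08 (SE), with an interval of -0.53 to 0.09, an unadjusted p of 0.0964 and an adjusted p of 0.803. SUV39H1 differed by 0.14 ± 0.09 (SE), with an adjusted p of 0.863. SUV39H2 rested on 11.7 equivalent fragments in the control and on 3.91 and 3.72 in the shBCAT1-1- and shBCAT1-2-labelled libraries. Its value in the control lay on NM_024670, at 0.375 FPKM (0.184 to 0.565). In the shBCAT1-1- and shBCAT1-2-labelled libraries this transcript had upper bounds of 0.0449 and 0.15 FPKM, apart from the control in both. The shBCAT1-1-labelled library held its SUV39H2 value on NR_034181, a non-coding RefSeq transcript of the locus, at 0.162 FPKM, and the shBCAT1-2-labelled library spread it over 4 transcripts. NM_024670 had an unadjusted p of 0.0349 and an adjusted p of 0.401 in limma on transcripts. DCLRE1C, which encodes the nuclease Artemis, overlaps the SUV39H2 locus (chromosome 10, 14897359 to 14954432) and was at 0.257, 0.167 and 0.270 FPKM. Without strand, reads of these genes cannot be told apart where they overlap.

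Of the 28 transcripts of the 10 genes on the main chromosomes, NM_001289413 and NM_024670 were the ones whose bounds lay apart from the control in both libraries, 1 higher and 1 lower. They were named after their values had been seen. Over 35546 transcripts, 1.48% were apart and higher in both and 2.34% apart and lower. By limma, 2.79% of all transcripts had an adjusted p under 0.05, and 0 of the 28 did. At an unadjusted p under 0.05 there were 4 of the 28 and 9.89% of all transcripts. Beside those named above they were NM_001243491 of SETDB1 (limma unadjusted p 0.00668, adjusted 0.140) and NM_001193427 of SUV39H2 (0.00243 and 0.0725). The latter was at 0.00386 FPKM in the control and differed by -0.0056, so without a filter small p-values also arise near 0 FPKM. With a minimum mean of 1 FPKM, limma called 0 of 4077 transcripts. The split of fragments among transcripts of 1 gene is itself an estimate.

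SETDB1 (chromosome 1, 150926339 to 150964744), the methyltransferase of the KRAB zinc finger pathway, was at 0.428 FPKM in the control, 0.335 in the shBCAT1-1-labelled library and 0.432 in the shBCAT1-2-labelled library. The control and the shBCAT1-2-labelled library were at nearly the same level. The limma difference was -0.05 ± 0.11 (SE), with an adjusted p of 0.924. The value lay on NM_001145415 in the shBCAT1-1-labelled library (0.335 FPKM) and on NM_012432 in the shBCAT1-2-labelled library (0.401 FPKM), and the control spread it over these and NM_001243491, a shorter transcript, with a lower bound of 0 for each of the 3.

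**Figure D2:**
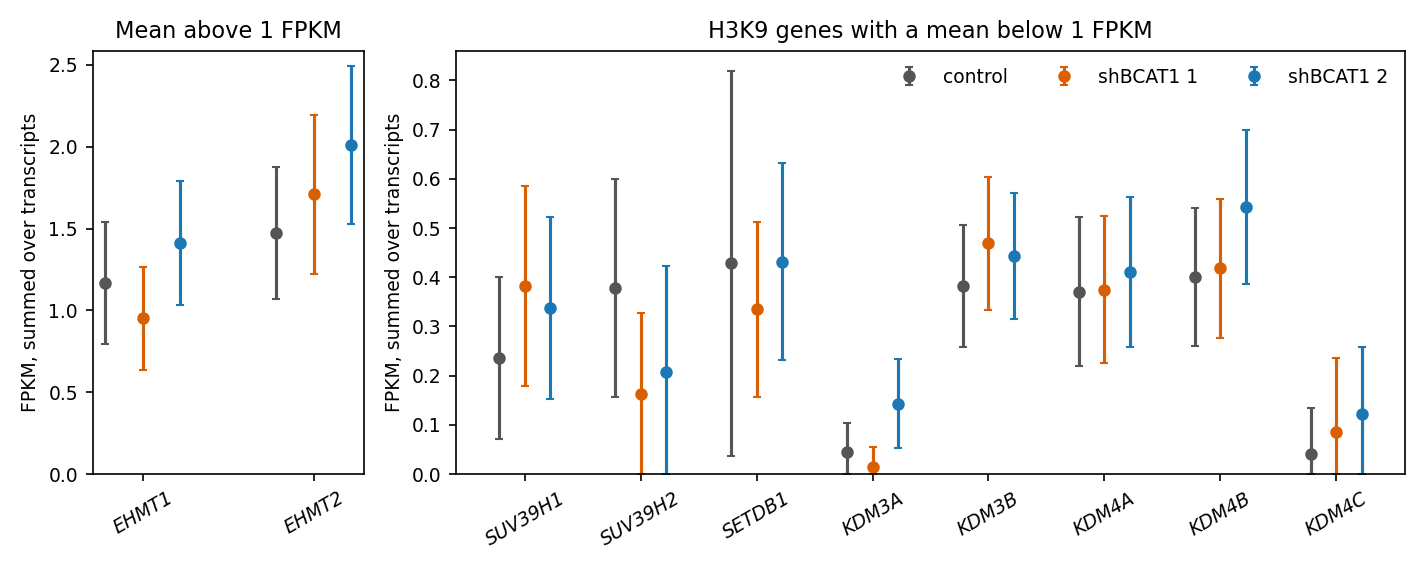
Points give the summed FPKM of each gene in the control and the shBCAT1-1- and shBCAT1-2-labelled libraries, with bars of 2 counting errors on each side and the lower end not below 0. EHMT2 and EHMT1 have the highest points in every library, though in the control the bar of EHMT1 (0.795 to 1.54) overlaps that of SETDB1 (0.0377 to 0.819), and the bars of each library labelled shBCAT1 overlap those of the control for all 10 genes.

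The demethylases were all below 1 FPKM. KDM3B (chromosome 5, 138352596 to 138437027), which removes mono- and dimethylation, was at 0.382 FPKM in the control, 0.469 in the shBCAT1-1-labelled library and 0.443 in the shBCAT1-2-labelled library. It has 1 transcript in the tables and rested on 38, 48 and 48 equivalent fragments. Both libraries labelled shBCAT1 were above the control, by less than the counting error of each difference (0.940 and 0.684 times). The limma difference was 0.07 ± 0.10 (SE), with an interval of -0.32 to 0.47 and an adjusted p of 0.863.

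Its paralog KDM3A (chromosome 2, 86441148 to 86492716), an enzyme induced by hypoxia in many cell types, was far lower. It stood at 0.0452 FPKM in the control, 0.0146 in the shBCAT1-1-labelled library and 0.143 in the shBCAT1-2-labelled library, on at most 9.98 equivalent fragments. The libraries labelled shBCAT1 lay on either side of the control, and the limma difference was 0.04 ± 0.10 (SE, adjusted p 0.921). KDM3B was 8.47, 32.1 and 3.09 times KDM3A in the 3 libraries, and the difference in FPKM was 3.83 to 6.43 times its counting error.

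KDM4A (chromosome 1, 43650126 to 43705518) and KDM4B (chromosome 19, 4969113 to 5153597), demethylases of di- and trimethylated H3K9 that also act on H3K36, were close to each other. KDM4A was at 0.371 FPKM in the control and at 0.375 and 0.411 in the shBCAT1-1- and shBCAT1-2-labelled libraries, and KDM4B was at 0.400, 0.418 and 0.543 FPKM. The differences from the control were at most 1.35 times the counting error, that of KDM4B in the shBCAT1-2-labelled library. By limma KDM4A differed by 0.02 ± 0.10 (SE, adjusted p 0.966) and KDM4B by 0.08 ± 0.12 (adjusted p 0.876). KDM4C (chromosome 9, 6720863 to 7175648), a member of the same family, was at 0.0415, 0.0849 and 0.123 FPKM, on 0.784 to 3.29 equivalent fragments, and its lower bound was 0 in every library. It differed by 0.08 ± 0.04 (SE) by limma, with an adjusted p of 0.803. KDM4A exceeded it 8.93, 4.41 and 3.34 times. KDM4A-AS1, an antisense RNA that overlaps the end of KDM4A, was at 0.0163, 0.240 and 0.0899 FPKM, and reads of the pair cannot be told apart without strand.

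By the mean of the 3 libraries, the order was EHMT2, EHMT1, KDM4B, KDM3B, SETDB1, KDM4A, SUV39H1, SUV39H2, KDM4C and KDM3A. EHMT1 and KDM4B were the neighbours whose bounds lay apart in all 3 libraries. SUV39H2 and KDM4C were apart in 1. For every other pair of neighbours the bounds overlapped in all 3 libraries. The order of neighbours from KDM4B to SUV39H2, where the means ran from 0.454 to 0.249 FPKM, is thus not resolved within these bounds. Genes further from each other in this order can lie apart. In the shBCAT1-1-labelled library KDM3B (0.333 to 0.604) lay above SUV39H2 (0 to 0.326). In the control EHMT2 was above 82.2% of the 16443 genes with any value and KDM4C above 24.1%.

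Of the 10 genes, 6 were higher in both libraries labelled shBCAT1 (EHMT2, SUV39H1, KDM3B, KDM4A, KDM4B and KDM4C), 1 was lower in both (SUV39H2) and 3 were mixed (EHMT1, SETDB1 and KDM3A). Over the 16443 genes tested without a filter, 27.3% were higher in both and 35.2% lower in both. Both libraries share the control, so agreement between them is no independent check. The median difference was 0.06 over the 10 genes and 0.00 over the 16443. By library, the median over the 16443 was -0.0089 in the shBCAT1-1-labelled and 0.0089 in the shBCAT1-2-labelled library. Over the 3889 genes averaging 1 FPKM or more it was -0.12 and 0.0053. The shBCAT1-2-labelled library was above the shBCAT1-1-labelled one in 8 of the 10 genes. The values were not corrected for this offset between libraries. By limma 0 of the 10 passed at an adjusted p of 0.05 and 0 at an unadjusted p under 0.05, where 1.58% of all genes were higher and 4.77% lower. The bounds overlapped those of the control in all 10 genes and both libraries. Over all genes without a filter, 2.98% lay apart in the shBCAT1-1-labelled library, 5.44% in the shBCAT1-2-labelled library, and in both 0.42% lay higher and 1.04% lower. With the minimum of 1 FPKM, which EHMT1 and EHMT2 pass, 9.26% and 15% lay apart in the first and the second.

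**Figure D3:**
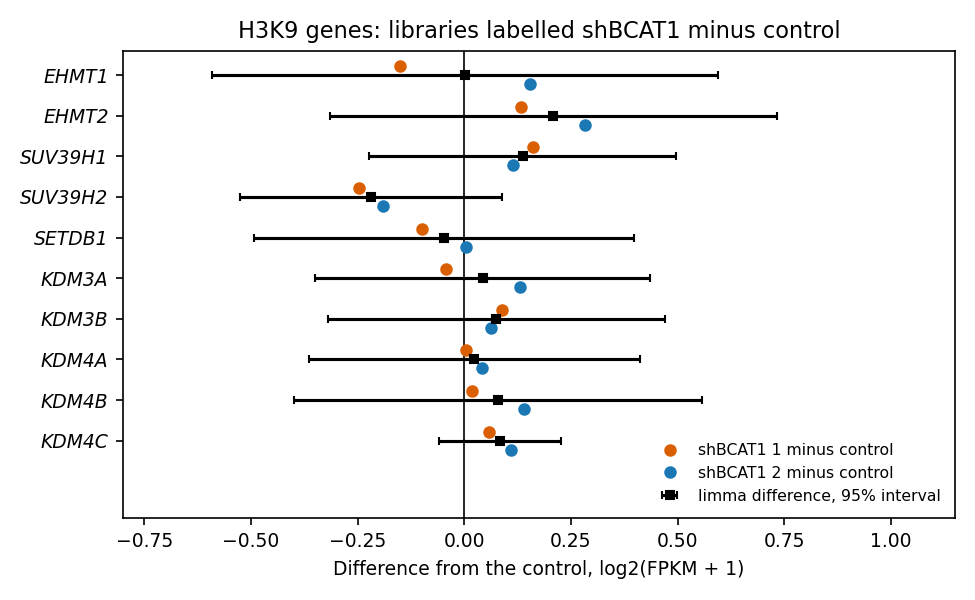
For each gene, circles give the log2(FPKM + 1) difference of the shBCAT1-1-labelled library (upper) and the shBCAT1-2-labelled library (lower) from the control, and the square gives the limma difference with its 95% interval (from the fit with a minimum of 1 FPKM for EHMT1 and EHMT2 and without a filter for the others). All 10 intervals hold 0, and SUV39H2 has both circles below 0.

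Transcript length moved with the differences over the genes averaging 1 FPKM or more. In 10 groups of nearly equal size, made by length from the 3799 such genes with a known length, the median log2(FPKM + 1) difference went from -0.39 for transcripts of 49 to 824 bases to 0.09 for those of 4634 to 23529 bases, and the share higher in both libraries from 7.37% to 49.7%. The transcripts of the 10 H3K9 genes averaged 2718 to 6813 bases, and the groups that span these lengths had medians of 0.01 to 0.09. For KDM4C the length, 3406 bases, is that of a transcript at 0.0415 FPKM in the control, 0.0264 in the shBCAT1-1-labelled library and 0 in the shBCAT1-2-labelled library. The transcript that held 95.3% of KDM4C in the shBCAT1-2-labelled library had no known length. Of the 10, EHMT1 and EHMT2 alone are among the 3799 genes, and log2(FPKM + 1) compresses the differences of the 8 lower ones, so their values cannot be read against these medians. With the length trend removed by loess within the fit each gene was read from, EHMT2 differed by 0.16, KDM4A by -0.00017 and EHMT1 by -0.051. With it removed in the fit without a filter for all 10 genes, 5 were higher and 2 lower in both libraries. The part of length in the sign of the differences was not tested further.

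**Figure D4:**
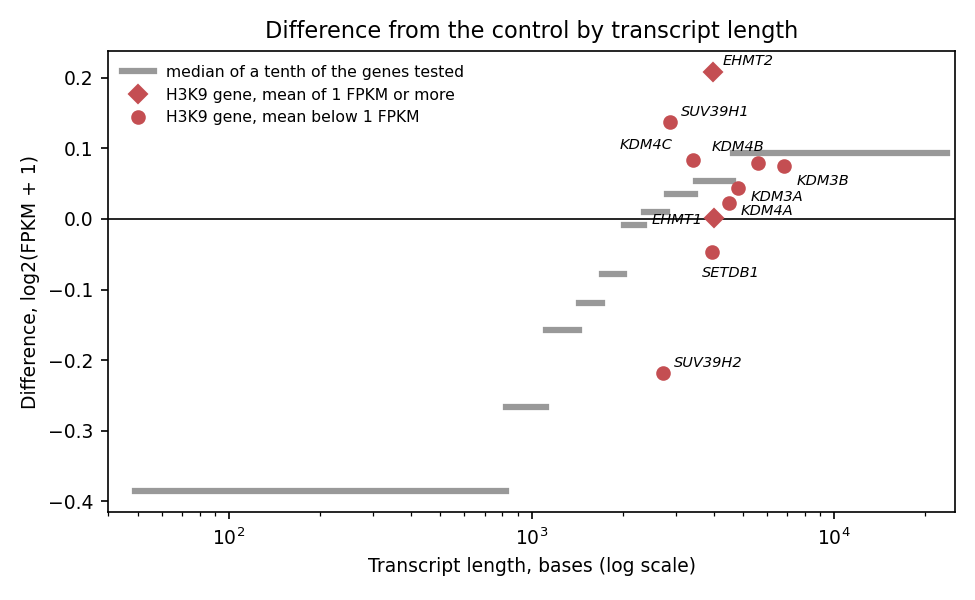
Grey lines give the median log2(FPKM + 1) difference from the control in each of 10 groups of the 3799 genes averaging 1 FPKM or more by transcript length in bases (log axis, line from shortest to longest), and red marks give the 10 H3K9 genes, of which all but EHMT1 and EHMT2 are below that minimum and so are not in the groups. The medians climb from -0.39 to 0.09, and EHMT2 lies above the line of its length at 0.21. KDM4C is placed at the length of a transcript that held 0% of it in the shBCAT1-2-labelled library.

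Summed by role, the 5 methyltransferases were at 3.68 FPKM in the control, 3.54 in the shBCAT1-1-labelled library and 4.40 in the shBCAT1-2-labelled library, and the 5 demethylases at 1.24, 1.36 and 1.66. The demethylase sum was higher in both libraries labelled shBCAT1, by 0.614 and 2.11 times the counting error. The methyltransferase sum lay on either side of the control. Both sums were larger in the shBCAT1-2-labelled than in the shBCAT1-1-labelled library, and so was the median difference over all genes. The part of this offset in the sums was not tested. Methyltransferases exceeded demethylases 2.97 times in the control and 2.60 and 2.64 times in the shBCAT1-1- and shBCAT1-2-labelled libraries. No counting error was computed for this ratio, and a change of it was not tested. The methyltransferase sum differed from the control by -0.288 and 1.41 times the counting error. It includes the short form of EHMT1 (0.724, 0.334 and 0.573 FPKM), which lacks the exons that encode the SET domain. Also in it is the non-coding transcript of SUV39H2, near 0 in the control and at 0.162 and 0.0393 FPKM in the shBCAT1-1- and shBCAT1-2-labelled libraries. The shorter transcript of SETDB1, whose locus stops at 150945320, adds 0.187 FPKM in the control and near 0 in the others.

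Other genes of the H3K9 pathway were mostly low as well. None of 4 further methyltransferases had a mean of 1 FPKM or more. Of 8 further demethylases KDM1A, a flavin-dependent enzyme, and HR, a Jumonji protein, did, and they are named outside the rule for named genes. KDM1A was at 2.36, 2.12 and 3.31 FPKM and HR at 1.56, 1.36 and 2.30 in the control and the shBCAT1-1- and shBCAT1-2-labelled libraries, so the control value lay between the others for both genes. For KDM1A the bounds in the shBCAT1-2-labelled library were 0 to 7.63, on 2.35 equivalent fragments, and its place above the control there is not resolved. WIZ, a zinc finger partner of EHMT1 and EHMT2, was at 0.922, 1.14 and 1.20 FPKM. TRIM28, the corepressor that recruits SETDB1, was the most abundant of these lists at 22.6, 23.2 and 26.7 FPKM, with its bounds apart from the control in the shBCAT1-2-labelled library. Below the minimum, MORC2 of the SETDB1 list was at 0.451, 1.03 and 0.877 FPKM, with bounds apart, higher, in the shBCAT1-1-labelled library. The demethylase PHF2 was at 0.310, 0.489 and 0.510, with overlapping bounds. Both were named after their values were seen. Without the minimum, 3 of 6 SETDB1 partners tested were higher in both libraries and 0 lower, and of 6 further demethylases 1 was higher and 1 lower.

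Of 8 readers of the mark, 3 reached a mean of 1 FPKM. CBX3, an HP1 protein that binds methylated H3K9, was at 5.57, 5.11 and 4.63 FPKM, and UHRF1, which links H3K9 methylation to DNA methylation, was at 0.997, 1.20 and 1.40, with bounds of 0 to 3.21 in the shBCAT1-2-labelled library. CBX1, another HP1 protein, was mixed. By limma none of these pathway genes was called, and the smallest adjusted p over the 12 such genes of all 8 lists was 0.803.

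Genes for other histone marks were compared. All 3 H3K4 genes with a mean of 1 FPKM or more were higher in both libraries, the methyltransferases KMT2B at 1.25, 1.69 and 1.74 FPKM, KMT2D at 1.47, 1.88 and 2.03 and SETD1A at 1.08, 1.52 and 1.40. Without the minimum, 7 of the 10 H3K4 genes were higher in both and 3 lower, beside 27.3% and 35.2% of all genes without a filter. The 3 lower ones were the demethylases KDM5A, KDM5B and KDM5C, named after their values were seen. Another H3K4 demethylase, KDM1B, also named after its values were seen, was higher in both, at 0.0543, 0.123 and 0.0665 FPKM. The 10 H3K4 genes do not include KDM1A, which was listed above with the H3K9 demethylases and was mixed, at 2.36, 2.12 and 3.31 FPKM. KDM5A was at 0.369, 0.334 and 0.201 FPKM, with bounds apart from the control in the shBCAT1-2-labelled library, KDM5B at 0.291, 0.271 and 0.257 and KDM5C at 1.04, 0.795 and 0.958. By limma without a filter the adjusted p of KDM5A, KDM5B and KDM5C was 0.863, 0.935 and 0.863. The bounds of KMT2B and KMT2D lay apart from the control in both libraries, as they did, higher, for 1.26% of the 3889 genes tested and, lower, for 4.17%. The H3K27 demethylase KDM6B was at 1.16, 1.54 and 1.32 FPKM and the H3K36 demethylase KDM2A at 1.10, 1.45 and 1.46. Over the 8 lists, 8 of 12 genes were higher in both and 1 was lower, beside 25.6% and 43.7% of the 3889 genes tested, and their median difference was 0.17 beside -0.06. These shares make no allowance for length. By transcript length WIZ, HR, KMT2B, KMT2D, SETD1A, KDM6B and KDM2A fall in the group of 4634 to 23529 bases. In that group 49.7% of genes were higher in both and 23.7% lower, with a median of 0.09. The part of length in the list counts was not tested. Without the minimum 49 of the 54 list genes could be tested, and 21 were higher and 11 lower in both, beside the same 27.3% and 35.2%. A difference between H3K9 genes and those of other marks was not tested.

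**Figure D5:**
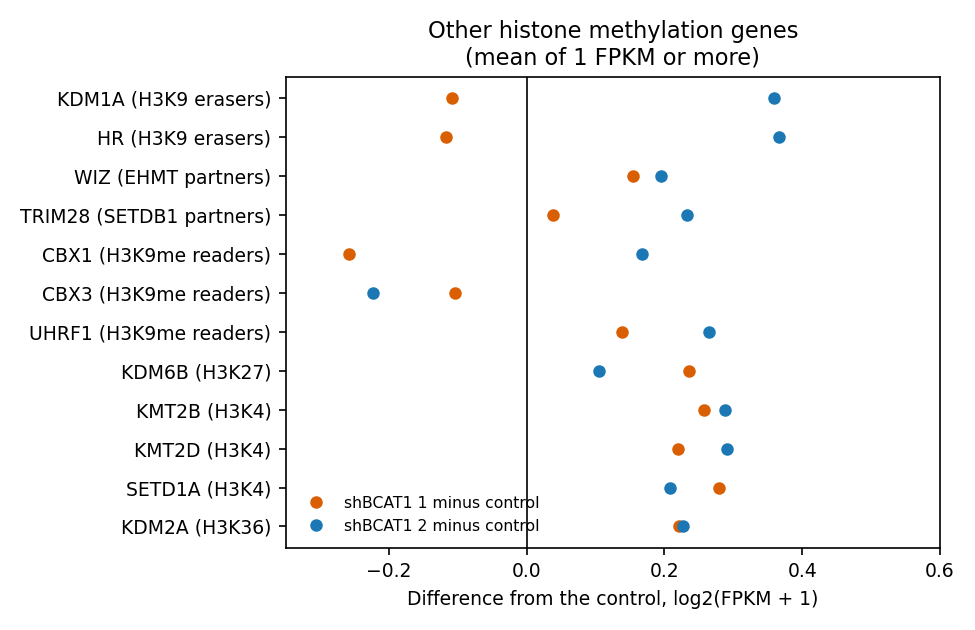
Circles give the log2(FPKM + 1) difference of each library labelled shBCAT1 from the control for the 12 list genes with a mean of 1 FPKM or more, with the mark or complex in brackets. KMT2B, KMT2D, SETD1A and KDM2A have both circles above 0.2, CBX3 has both below 0, and KDM1A, HR and CBX1 have 1 on each side.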

How the data were processed

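The deposited values are FPKM with confidence bounds and a status, made by the authors in a separate table per library, 1 entry per RefSeq transcript and locus, per the file headers. Trim Galore, TopHat, Cufflinks and the build hg38 are named in the submitters' processing notes. Versions, annotation and strand: not given in the sources used here. Read totals are unknown, and the equivalent fragments, which also fall where fragments are hard to split among transcripts, are only a rough guide to depth.

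Of 50337 accessions, 49281 were named from RefSeq (GRCh38.p14) and 645 from GENCODE release 29. FPKM was summed per gene, and 341 genes with a status other than OK were left out. The 45 entries of the 10 genes include 17 on alternative sequences, all at 0. Libraries were grouped by the knockdown label. limma 3.58.1 (R 4.3.3) was fitted on log2(FPKM + 1) with a mean-variance trend, two-sided, on genes averaging 1 FPKM or more, and p-values were adjusted by Benjamini-Hochberg. The scale understates changes of low genes. The 8 genes below the minimum, BCAT1 and the list genes below it were read from the same fit without a filter. Only shBCAT1-1 and shBCAT1-2 give a spread (residual df 1, prior df 2.99, or 1.25 without a filter), and the single control is assumed to vary like them. The fit was tested on simulated data. Python 3.11.15 built tables and plots. File starts are printed 1-based.

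The members, lists, tests and alternatives were chosen with earlier results of these data known. All 10 members are named, and by rule at most 4 genes per wider list, ranked among genes past the minimum by the lesser of their 2 differences where both had 1 sign. KDM1A, HR, CBX1, MORC2, PHF2 and the H3K4 demethylases are named outside this rule. Transcripts were picked after their values were seen. PRDM2 had a status other than OK and was not tested.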

Additional observations from a re-analysis of the deposited data

How the results depend on the processing

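Over 91 alternative fits of the 10 genes (pseudocount, filter, scaling, trend, sequences, short loci, length, transcripts kept apart), 87 kept the direction and by limma 0 passed, with an adjusted p from 0.401 to 1. EHMT1 turned from 0.00 to -0.0066 with a pseudocount of 0.1, -0.00069 with quantile normalization and -0.051 with the length trend removed, and KDM4A to -0.00017 with the length trend removed. The transcript NM_006709 turned to -0.022 with a pseudocount of 0.1, an alternative chosen after seeing the data, as were all those for single transcripts. No alternative brought NM_001289413 (adjusted p 0.18 to 0.369) or NM_024670 (0.279 to 0.494) past the threshold.

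The count of all genes called, 14, became 1 without loci under 300 bases, by limma 0 of 4077 with transcripts kept apart (266 at an unadjusted p under 0.05; without the 1 FPKM minimum 993 of 35546 transcripts passed), 0 of 16443 with no filter (1044 unadjusted) and 8 at a minimum mean of 5 FPKM. Members higher in both libraries were 6, and 1 of 2 at a minimum mean of 1 FPKM. Members lower in both were 1, 2 with quantile normalization, 2 with the length trend removed and 0 at a minimum mean of 1 FPKM. At a minimum mean of 5 FPKM none of the 10 genes was left. List genes higher in both were 8, 21 with no filter and 1 at a minimum of 5 FPKM. Those lower in both were 1, 0 with median-of-ratios scaling, quantile normalization or the length trend removed, and 11 with no filter.

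With 1 library labelled shBCAT1 left out, the difference has no test, and EHMT1, SETDB1, KDM3A and NM_006709 take the sign of the library kept. Members higher were then 6 to 9 and members lower 1 to 4 (4 without the shBCAT1-2-labelled library), list genes higher 8 to 11 and lower 1 to 4. The ratio to the control was 1.10 to 1.34 for the demethylase sum, beside 1.22 in both, and 0.962 to 1.19 for the methyltransferase sum, beside 1.08. With both libraries kept, the demethylase ratio was 1.28 with median-of-ratios scaling and 1.14 with the length trend removed. The methyltransferase ratio was 1.13 and 1.04 in these settings. The single control could not be left out. No paired analysis was possible because the control is 1 library without a number in the labels. KDM3A and KDM4C never reached 10 equivalent fragments, and the parts of depth and of the split among transcripts in this were not separated.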
